A study of Mus musculus with 34 samples.

Results

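The regions described here are 2000 bins of 1 kb, out of 2631606 bins analysed on chromosomes 1 to 19 and X of the mouse genome (GRCm38), that carried high CTCF counts away from protein-coding gene ends and almost no H3K4me3 counts. A bin qualified when it lay over 2 kb from any protein-coding gene end and when its count, summed over the 3 H3K4me3 libraries of 10000 cells, was 1 or less. Of 2451451 distal bins, 1819935 (74.2%) met that condition and are called eligible bins below. The 2000 with the highest count, summed over the 2 single-stained CTCF libraries, were taken, with ties broken by position, and these values are therefore a description and not a finding.

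The libraries came from C2C12, an immortal mouse myoblast line, by mtChIL-seq, in which fixed cells are stained with antibodies and transposase places a tagged DNA probe next to the bound antibody, so that the neighbouring genome can be transcribed and sequenced. In dual staining, 2 targets were read from the same cells. The groups used were CTCF of the CTCF and H3K4me3 pair at 1000 cells and at 10000 cells, H3K4me3 of that pair at 1000 and at 10000 cells, H3K27ac of the H3K27ac and Pol2S2P pair at 100 and at 1000 cells, and Pol2S2P of that pair at 100 and at 1000 cells, with 3 libraries each. CTCF alone at 10000 cells and Pol2S2P alone at 1000 cells had 2 libraries each. No treatment, knockout or input library was among the 28 libraries analysed, and the labels do not say how replicates were made. If they shared a culture, the tests below compare technical spread only.

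CTCF is a zinc-finger protein that binds a long asymmetric motif and halts cohesin as it extrudes chromatin, which places it at the anchors of loops and at domain borders. H3K4me3 marks the start sites of active genes, H3K27ac marks active promoters and enhancers, and Pol2S2P is RNA polymerase II phosphorylated on serine in its tail during elongation. Distal CTCF sites without H3K4me3 are therefore often read as architectural sites outside promoters.

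The sequence of most of these bins was not used here, but 12 RefSeq promoter windows of 300 bases around a start (GRCm38.p6), from 11 genes, lay wholly inside a bin. Of the 12 windows, 10 belonged to lncRNA genes and 2 to start sites inside protein-coding genes. The CTCF core, spelled CC, any 3 bases, AG, any 2 bases and GGC, was searched on either strand and was found in 3 of the 12 (25%), against 229 (4.71%) of 4867 windows in eligible bins and 2828 (8.67%) of all 32619 windows. A stricter spelling, a subset of the first with G as the second of those 2 bases, was found in 0 of the 12, against 1.46% of windows in eligible bins and 3.23% of all windows. To set sequence beside signal, the 3 windows with the core are shown, and with them the window in the bin with the highest CTCF count of the 12, which held no match to these letters. The sequences run 5′ to 3′ along the gene, and capitals mark the core, which reads in reverse complement in Gm19522 and at the first of the 2 matches in Gm33308.
Gm33308, chr12:32246153-32246452, plus strand: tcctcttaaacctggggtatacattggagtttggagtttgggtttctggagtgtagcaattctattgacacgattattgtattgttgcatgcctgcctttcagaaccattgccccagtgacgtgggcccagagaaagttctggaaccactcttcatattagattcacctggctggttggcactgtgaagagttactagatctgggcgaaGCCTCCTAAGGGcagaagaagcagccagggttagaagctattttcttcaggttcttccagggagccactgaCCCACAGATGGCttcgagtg
Potegl, chr2:23207226-23207525, plus strand: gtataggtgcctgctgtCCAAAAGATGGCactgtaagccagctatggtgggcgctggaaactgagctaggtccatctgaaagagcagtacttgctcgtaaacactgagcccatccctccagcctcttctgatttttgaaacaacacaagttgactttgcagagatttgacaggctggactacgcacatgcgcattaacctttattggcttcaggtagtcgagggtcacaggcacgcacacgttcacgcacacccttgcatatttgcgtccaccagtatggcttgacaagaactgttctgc
Gm19522, chr16:42912021-42912320, minus strand: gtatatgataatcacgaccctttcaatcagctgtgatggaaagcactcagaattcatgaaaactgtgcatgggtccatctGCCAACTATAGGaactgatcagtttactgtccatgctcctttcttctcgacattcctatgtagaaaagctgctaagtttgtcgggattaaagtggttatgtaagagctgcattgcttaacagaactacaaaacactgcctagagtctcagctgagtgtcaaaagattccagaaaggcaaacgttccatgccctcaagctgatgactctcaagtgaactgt
Gm13003, chr4:137165017-137165316, minus strand: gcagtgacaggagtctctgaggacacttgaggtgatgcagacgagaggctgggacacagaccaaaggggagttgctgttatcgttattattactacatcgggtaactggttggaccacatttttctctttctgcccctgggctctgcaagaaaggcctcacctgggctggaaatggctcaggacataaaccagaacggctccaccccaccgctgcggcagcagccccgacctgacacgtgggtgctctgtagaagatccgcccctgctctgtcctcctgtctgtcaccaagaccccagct
The bin with the Gm33308 start, nearest the protein-coding gene Pik3cg, held 9, 11 and 5 CTCF counts in the 3 dual libraries of 1000 cells and 13, 9 and 13 in those of 10000 cells. The bin with the Potegl start held 3, 0 and 5 CTCF counts at 1000 cells and 14, 6 and 8 at 10000 cells. In the bin with the Gm19522 start, inside the transcription factor gene Zbtb20, the CTCF counts were 0, 3 and 6 at 1000 cells and 7, 7 and 10 at 10000 cells. The bin with the Gm13003 start, nearest the signalling gene Wnt4, held 10, 15 and 8 at 1000 cells and 9, 16 and 12 at 10000 cells. At 1000 cells, summed counts of CTCF, H3K27ac and dual-stained Pol2S2P were 25, 4 and 5 at Gm33308 and 33, 1 and 3 at Gm13003. They were 8, 9 and 12 at Potegl and 9, 10 and 5 at Gm19522, where CTCF counts were not above H3K27ac counts. Of 1005 microRNA hairpins in the RefSeq table, 1 lay wholly inside a chosen bin, that of Mir759 (chr14:79738431-79738528, plus strand).

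The summed single-stained CTCF counts of the 2000 bins ran from 25 to 80, with a median of 30, where the mean of all bins was 4.49 and that of eligible bins 2.42. At the lower limit the choice was arbitrary: 93 chosen bins held 25 counts and 174 eligible bins with the same 25 counts fell outside by position. The bins just inside were those near Txnrd3, in Magi1 and near Kbtbd8, and those just outside were named for Frmd4b, Prok2 and Cntn3, all with 25 counts. For H3K4me3, 513 of the chosen bins held 0 counts and 1487 held 1, where the mean over all bins was 1.84, so the condition describes low counts at this depth and not the absence of the mark. Total counts per library were 719730 to 1317119 for H3K4me3 and 2074168 to 3262623 for CTCF at 1000 cells, and the other groups lay between 1158674 and 6653065. As a check of the cell line, H3K4me3 at 10000 cells stood 6.95 to 48.4 times over the genome mean at the ends of 5 of 6 myoblast and mesenchymal genes (Myf5, Des, Vim, Col3a1, Cdh15) and at 1.13 ± 0.474 times (SD, n = 3) at Myod1, against 0.0741 to 1.55 times at 6 markers of other cell types.

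The chosen bins are high by construction in single-stained CTCF, at 7.37 ± 0.0818 times the genome mean per bin (SD, n = 2 libraries). In libraries that the choice did not use, dual-stained CTCF stood at 6.43 ± 0.167 times the genome mean at 1000 cells and 6.59 ± 0.0869 times at 10000 cells (SD, n = 3 each), while the eligible bins stood at 0.574 ± 0.00556 and 0.536 ± 0.00278 times. Bin by bin, 1814 of the 2000 (90.7%) were above the genome mean in every 1000-cell CTCF library, against 3.19% of eligible bins. At 10000 cells the count was 1981 (99.1%), against 6.23% of eligible bins. The lowest of the 2000 held 1 CTCF count over the 3 dual libraries of 1000 cells, and the median held 19.

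The other targets stood far lower at these bins. H3K4me3 at 1000 cells, which the choice did not use, was at 1.43 ± 0.103 times the genome mean in the chosen bins and 0.414 ± 0.0105 times in the eligible bins (SD, n = 3). Its summed count was 0 in 479 (24.0%) of the chosen bins, against 67.6% of eligible bins, and at most 11 in the chosen bins. H3K27ac was at 1.55 ± 0.0493 times at 100 cells and 1.48 ± 0.0290 times at 1000 cells, against 0.581 and 0.578 times in eligible bins. Pol2S2P was at 1.27 ± 0.0381 times at 100 cells, 1.28 ± 0.0270 times at 1000 cells and 1.48 ± 0.0225 times in single staining (n = 2). So every target was above its own level in the eligible bins, CTCF by the widest margin.

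A second set of 2000 distal bins, ranked the same way but with 2 or more H3K4me3 counts, serves for comparison. It is not matched for CTCF, since its single-stained counts ran from 102 to 389 with a median of 119, where the chosen bins had a median of 30. Dual-stained CTCF at 1000 cells stood at 6.43 times the genome mean in the chosen bins and 26.1 times in the comparison bins. H3K4me3 at 1000 cells was at 1.43 and 10.0 times, H3K27ac at 1000 cells at 1.48 and 6.89 times, and Pol2S2P at 1000 cells at 1.28 and 4.32 times. No eligible bin exceeded 80 single-stained counts, so the distal bins highest in CTCF all held 2 or more H3K4me3 counts, and the bins described here are a lower tier.

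**Figure D1:**
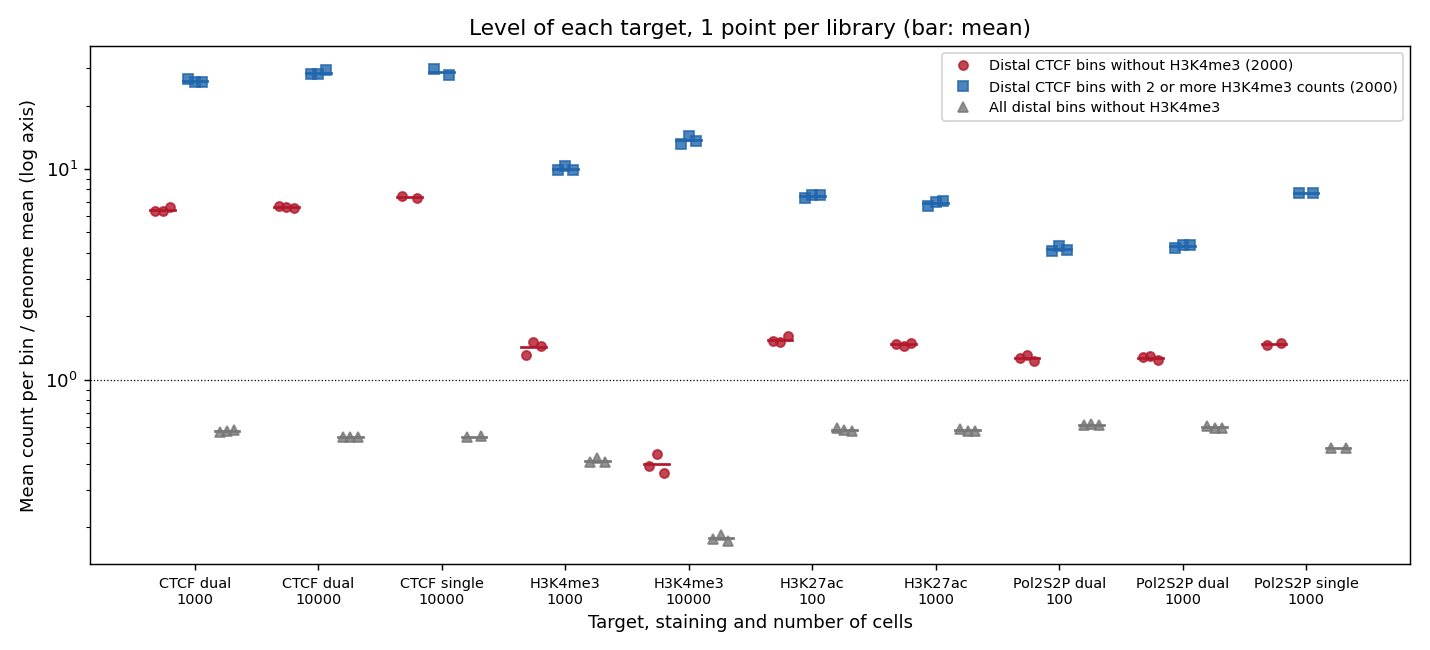
Mean count per 1 kb bin divided by the genome mean (log axis), 1 point per library and a bar for the mean, by target, staining and number of cells. The chosen bins (red circles) lie near 6.4 to 7.4 in every CTCF group and between 1.27 and 1.55 in H3K27ac and Pol2S2P, below the comparison bins (blue squares) and above the eligible bins (grey triangles) in every group.

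The label "site" held for most but not all of the bins. In single-stained CTCF, 1223 (61.2%) were at least as high as both touching bins and are called summits, and 777 (38.9%) lay beside a higher bin and are called shoulders. The shoulders had a median of 29 single-stained counts, and the higher of their touching bins a median of 65, with 425 of them touching a bin at least 2 times as high and 126 touching a comparison bin. The split held in libraries it did not use: 1071 of the summits (87.6%) and 48 of the shoulders (6.18%) were also summits in dual-stained CTCF at 1000 cells. At 10000 cells these counts were 1089 (89.0%) and 37 (4.76%).

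A touching bin held 2 or more H3K4me3 counts at 10000 cells beside 1525 (76.3%) of the chosen bins, against 27.5% of eligible bins and 40.6% of all bins. This was so for 776 of the 1223 summits (63.5%) and 749 of the 777 shoulders (96.4%). Around shoulders, H3K4me3 at 10000 cells averaged 2.83 ± 0.304 times the genome mean in the bin on the left and 2.83 ± 0.273 times on the right (SD, n = 3). Around summits the same values were 0.809 ± 0.0755 and 0.845 ± 0.0749 times, below the genome mean.

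CTCF formed a narrow peak over the summits. At 1000 cells it was at 6.78 ± 0.189 times the genome mean in the summit bin and 2.67 ± 0.0661 and 2.72 ± 0.0657 times in the touching bins, and at 10000 cells at 7.0 ± 0.122 against 2.73 ± 0.0234 and 2.79 ± 0.0389 times (SD, n = 3 each). Over the shoulders the pattern was inverted, with 5.86 ± 0.133 times in the bin and 9.5 ± 0.0849 and 9.65 ± 0.0587 times beside it at 1000 cells. At 5 to 10 bins from all 2000, CTCF was still at 1.79 times at 1000 cells and 1.83 times at 10000 cells.

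The remaining targets, apart from H3K4me3 at 10000 cells, which is low by choice, were also higher in the summit bin than beside it. H3K4me3 at 1000 cells was at 1.48 ± 0.106 times in the summit bin and 0.851 ± 0.0283 and 0.876 ± 0.0264 times in the touching bins, although the same bins had been chosen for low H3K4me3 at 10000 cells. H3K27ac at 1000 cells was at 1.27 ± 0.0375 against 1.02 ± 0.00915 and 1.03 ± 0.0179 times. Pol2S2P was at 1.16 ± 0.0198 against 0.981 ± 0.0215 and 1.04 ± 0.0513 times in dual staining at 1000 cells. In single-stained Pol2S2P the summit bin was at 1.52 ± 0.00251 times against 0.882 ± 0.0140 and 0.953 ± 0.0160 times (n = 2). All of these differences exceeded the SD between libraries, and their cause was not tested.

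**Figure D2:**
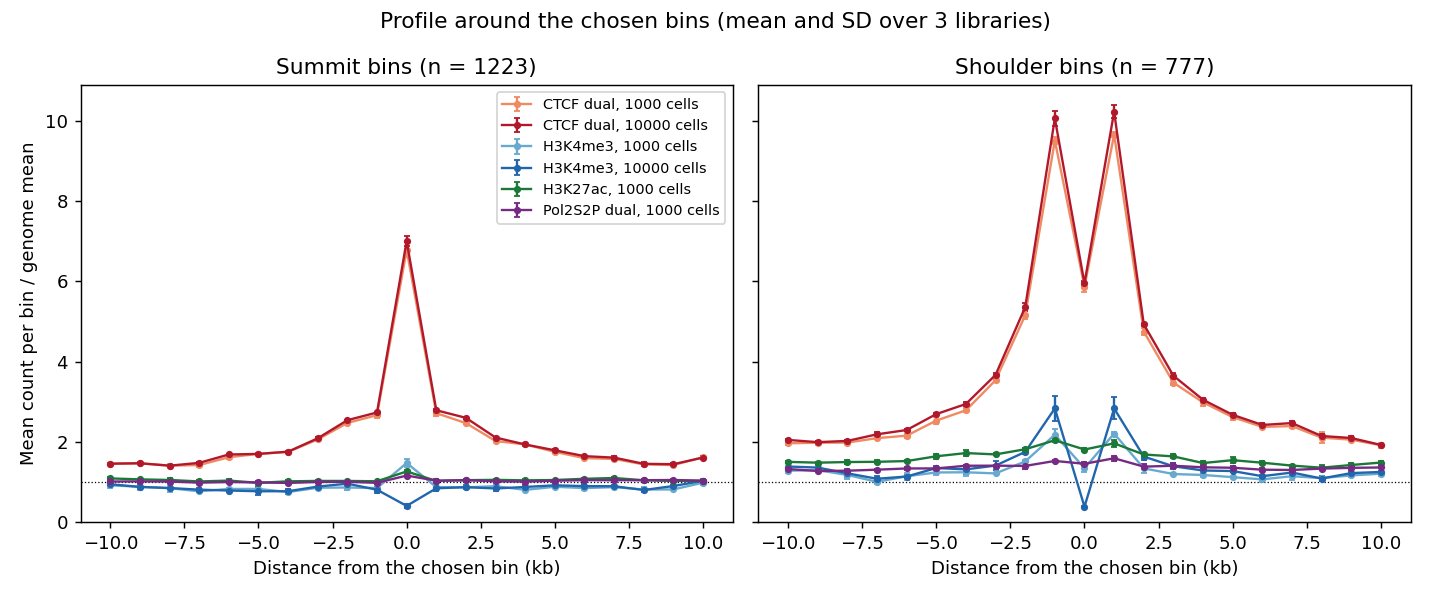
Mean count per bin divided by the genome mean, from 10 kb before to 10 kb after the chosen bin, for summits (left, 1223 bins) and shoulders (right, 777 bins), with lines for the mean and bars for the SD over 3 libraries. Summits show 1 narrow CTCF peak near 7 times the genome mean, whereas shoulders show CTCF maxima near 10 times in the touching bins, with H3K4me3 at 10000 cells near 2.8 times there.

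The other targets differed in how they went with rank. The highest 100 bins were at 11.7 ± 0.26 times the genome mean in dual-stained CTCF at 1000 cells and the last 500 at 4.93 ± 0.101 times. H3K27ac at 1000 cells was at 1.62 ± 0.140 times in the highest 100, 1.23 ± 0.0382 times at ranks 101 to 500 and 1.62 ± 0.0774 times in the last 500. Pol2S2P at 1000 cells was at 1.15 ± 0.0562 times in the highest 100 and 1.43 ± 0.0648 times in the last 500, while single-stained Pol2S2P was at 1.66 ± 0.169 and 1.37 ± 0.041 times (n = 2). H3K4me3 at 1000 cells was at 1.78 ± 0.157, 1.5 ± 0.0531, 1.43 ± 0.188, 1.38 ± 0.122 and 1.34 ± 0.132 times over the 5 bands of rank. Bands after the first differed from the next by less than the larger of their SDs between libraries. Across the 2000 bins, CTCF counts at 10000 cells correlated between dual and single staining (Pearson r = 0.72, Spearman rho = 0.62), a relation narrowed and shaped by the choice on one of the axes. Dual CTCF at 10000 and 1000 cells correlated with r = 0.71, and H3K27ac and Pol2S2P at 1000 cells with r = 0.55. These coefficients are descriptions over bins that share libraries, depth and copy number, not over replicates.

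The 10 bins with the highest single-stained CTCF counts show the pattern at single loci, 9 of them as summits. The highest, chr5:104218576-104219575, lies 4.47 kb from Dmp1, which encodes a matrix protein of bone and dentin. It held 8, 15 and 19 CTCF counts and 1, 0 and 1 H3K4me3 counts in the dual libraries of 1000 cells, 2, 0 and 0 H3K27ac counts and 2, 0 and 0 Pol2S2P counts. No H3K4me3, H3K27ac or Pol2S2P library reached the lowest CTCF library there.

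Of the next, several lie in or near genes of neurons. Nrxn2, a presynaptic adhesion gene, held a bin with 9, 15 and 17 CTCF counts against 0, 1 and 2 H3K4me3 counts at 1000 cells. Dlgap1, which encodes a postsynaptic scaffold protein, held a bin with 10, 24 and 21 against 0, 0 and 1. A bin 81.5 kb from Cntn1, a neural adhesion gene, had 12, 13 and 17 against 0, 1 and 0. In these bins CTCF was high in each library and H3K4me3 was at 2 counts or fewer.

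Others lie at genes of matrix, signalling and immunity. Lama4, which encodes a laminin chain of basement membranes, held a bin (chr10:39064846-39065845) with 11, 18 and 33 CTCF counts against 0, 0 and 0 H3K4me3 counts. In Crtam, an adhesion receptor of T and NK cells, the counts were 7, 21 and 20 against 0, 1 and 2. Ccn5, a matricellular gene, held 13, 17 and 15 CTCF counts, and its bin had the most H3K27ac of the 10, with 7, 5 and 3 counts. The bin of Rgs3, a regulator of G-protein signalling, was the shoulder of the 10, with 69 single-stained counts beside a bin of 70.

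The imprinted gene Cdkn1c, an inhibitor of cyclin-dependent kinases, had the bin of rank 7 (chr7:143463416-143464415), 2.36 kb from its end and inside the lncRNA gene Gm33663. It held 10, 7 and 12 CTCF counts at 1000 cells and 24, 37 and 33 at 10000 cells, against 1, 1 and 0 and 0, 0 and 0 H3K4me3 counts. A further bin lay in the neighbouring imprinted gene Kcnq1, a potassium channel gene, as a shoulder with 5, 12 and 4 CTCF counts against 1, 0 and 1 H3K4me3 counts at 1000 cells. The bin of rank 9, 24.1 kb from the zinc-finger gene Zfp24, held 9, 14 and 19 CTCF counts against 0, 3 and 1 H3K4me3 counts.

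**Figure D3:**
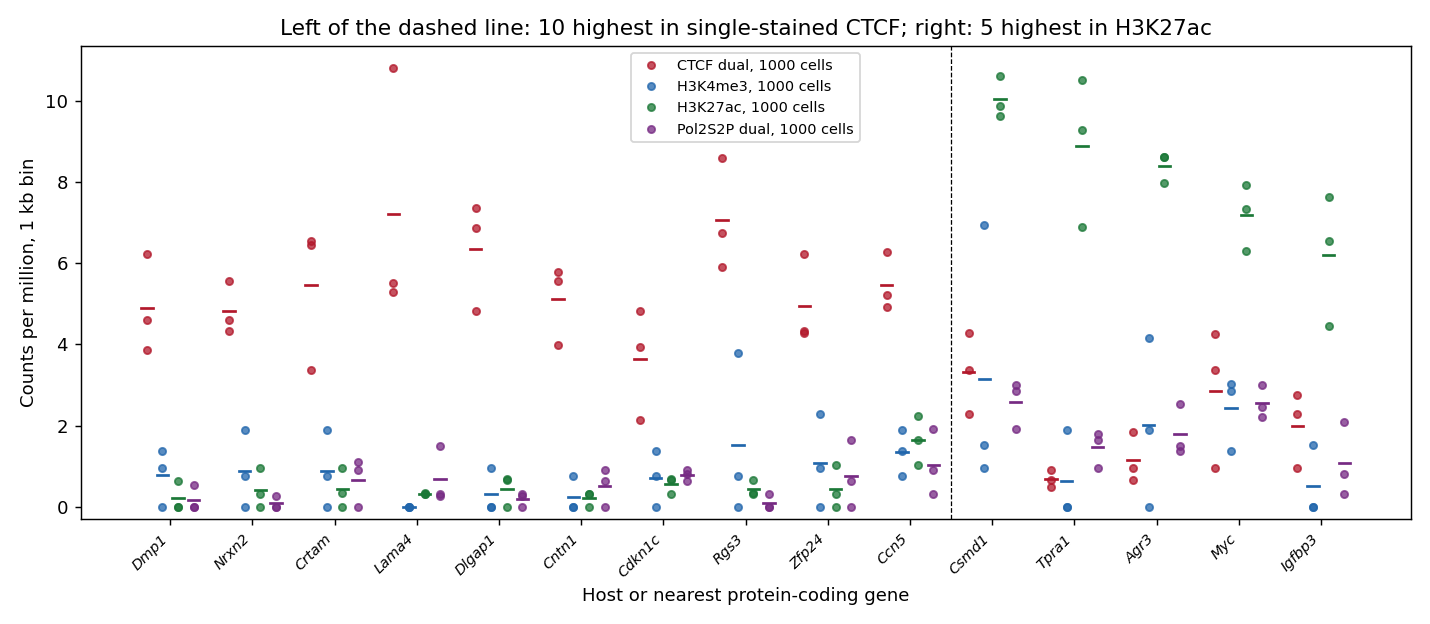
Counts per 1000000 (CPM) in 1 kb bins of 1000-cell dual libraries, 1 point per library and a bar for the mean, for the 10 bins highest in single-stained CTCF (left of the dashed line) and the 5 highest in H3K27ac (right). CTCF points lie above every H3K4me3 point in each of the 10 left-hand bins, and H3K27ac points lie above every CTCF point in each of the 5 right-hand bins. The right-hand bins were picked on the H3K27ac values shown, so their direction is partly built in.

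The first comparison asked whether bins chosen at 10000 cells also had more CTCF than H3K4me3 at 1000 cells, in libraries the choice did not use. All comparisons set a bin's share of one target's library against its share of another's, so a fold change compares shares and not amounts of protein. With edgeR's quasi-likelihood test, adjusted over 106749 tested bins at a threshold of 0.05, CTCF was higher than H3K4me3 at 774 of the 2000 chosen bins (38.7%) and lower at 0, where 16.3% of all tested bins were called higher and 19.6% lower. These shares are not like for like: the chosen bins entered the test through single-stained CTCF and could not have entered through H3K4me3, as many tested bins did, so the choice of bins favours calls in this direction and the 0 is not read as a result. Of the 2000, 1095 had an unadjusted edgeR p under 0.05, against 47019 of the 106749 tested bins. DESeq2 also called 0 lower. With the replicate number as a block, since the targets of 1 dual staining share a number, 611 were called higher and 0 lower. The comparison bins were called higher at 77.2% and lower at 1.85%, and 3996 other eligible bins that were tested at 11.2% and 0.225%. The median log2 fold change was 2.25 in the chosen bins, 1.74 in the comparison bins and 0.31 over all tested bins.

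The counts depended on scaling and on single libraries. The H3K4me3 libraries at 1000 cells were among the shallowest, and over 3 libraries the medians of the chosen bins were 19 CTCF counts and 1 H3K4me3 count. Without H3K4me3 replicate 2, 424 chosen bins were called higher. TMM scaling moved the median of all tested bins to 0.66 and DESeq2's size factors to 1.25, with 1092 and 1067 chosen bins called higher, and the share of all calls that were higher was 45.5% by library total, 57.6% with TMM and 70.7% with DESeq2. The chosen bins' own median stayed above that of all tested bins, at 2.57 with TMM and 3.22 with DESeq2.

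The 5 chosen bins with the largest fold changes all had 0 H3K4me3 counts at 1000 cells, so only a lower bound is given, from a floor of 3 counts over the group. The Lama4 bin averaged 7.21 ± 3.12 counts per 1000000 in CTCF and 0 in H3K4me3 (SD, n = 3 each), at least 7.61-fold higher (edgeR, adjusted p = 2.24e-07). A bin 110.5 kb from Ccng1, the cyclin G1 gene, held 11, 17 and 18 CTCF counts against 0, 0 and 0 H3K4me3 counts, at least 5.65-fold higher (edgeR, adjusted p = 1.43e-05). Rasa2, a GTPase-activating protein of Ras, held a bin with 12, 16 and 17 against 0, 0 and 0, at least 5.52-fold higher (edgeR, adjusted p = 1.79e-05). The bins in Mroh5 and near Jrkl were at least 5.28-fold and 5.16-fold higher. That the groups did not overlap at any of the 5 was a condition for naming them. Each kept its call under all alternatives that tested it, and an alternative filter, filterByExpr, left all 5 out.

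The second comparison set CTCF against H3K27ac at 1000 cells, 2 targets read in different stainings, so that target and staining cannot be told apart. CTCF was higher at 1356 chosen bins (67.8%) and lower at 17 (0.85%), where 30.9% of all tested bins were called higher and 11.6% lower (edgeR). Here too the chosen bins entered the test by high CTCF and other tested bins in part by H3K27ac, so the difference from the background is partly built in. The comparison bins were called higher at 87.6% and lower at 2.4%, and the 3996 other eligible bins at 26.9% and 10.3%. The median log2 fold change was 2.5 in the chosen bins and 0.55 over all tested bins. With TMM these medians were 2.11 and 0.15, and with DESeq2 2.38 and 0.31, where DESeq2 called 819 chosen bins higher. The share of all calls that were higher was 72.7% by library total, 58.6% with TMM and 65.2% with DESeq2.

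The 5 largest changes were at bins with 0 H3K27ac counts. In all, 150 of the chosen bins (7.5%) held 0, against 34.4% of eligible bins and 26.6% of all bins. A bin 24.9 kb from Pax7, the transcription factor of muscle satellite cells (chr4:139858431-139859430), held 15, 23 and 19 CTCF counts against 0, 0 and 0 H3K27ac counts, at least 20.5-fold higher (edgeR, adjusted p = 5.76e-14). Lmbr1, which in an intron carries the limb enhancer of Shh, held a bin (chr5:29292886-29293885) with 12, 25 and 18 against 0, 0 and 0, at least 19.8-fold higher (edgeR, adjusted p = 1.91e-13). Whether that bin is near the enhancer was not examined. Plppr1, a membrane protein gene of neurons, held a bin with 14, 18 and 20 against 0, 0 and 0, at least 18.7-fold higher (edgeR, adjusted p = 8.11e-13). The bins in Mroh5 and near the angiotensin receptor gene Agtr1b were each at least 15.5-fold higher.

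At 17 chosen bins H3K27ac was called higher than CTCF, and 6 of them were summits in CTCF. With TMM the count was 28. A bin 52.4 kb from Tpra1, a membrane receptor gene, held 1, 3 and 2 CTCF counts against 33, 28 and 20 H3K27ac counts, a log2 fold change of -3.57 ± 0.48 (SE, edgeR, adjusted p = 4.62e-12). A bin 189.8 kb from Agr3, of the protein disulfide isomerase family, held 2, 6 and 2 against 25, 26 and 25, a log2 fold change of -2.77 ± 0.43 (edgeR, adjusted p = 3.77e-09). In Mall the counts were 0, 1 and 0 against 5, 9 and 3, a ratio of 0.0635 with a counting interval of 0.00152 to 0.406. In a bin 25 kb from Tmem230 they were 3, 2 and 1 against 8, 9 and 12, a log2 fold change of -2.09 ± 0.64. Igf1r, the receptor of insulin-like growth factor 1, held a bin with 2, 2 and 1 against 4, 9 and 14, a log2 fold change of -2.24 ± 0.68 that lost its call without H3K27ac replicate 3, where it was -1.75.

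The 5 bins with the most H3K27ac at 1000 cells held 56 to 91 counts, where the median of the 2000 was 3. They were picked on these H3K27ac libraries, so a difference from CTCF or Pol2S2P in favour of H3K27ac is partly built in. The highest was a bin 161.6 kb from Csmd1 (chr8:15729941-15730940), a gene of a membrane protein with complement-control domains, with 7, 14 and 7 CTCF counts against 31, 32 and 28 H3K27ac counts. At 100 cells it held 23, 9 and 5 H3K27ac counts. A bin 343.4 kb from Myc, the proto-oncogene (chr15:62333751-62334750), was a CTCF summit and held 2, 11 and 13 CTCF counts against 23, 19 and 23 H3K27ac counts, a log2 fold change of -1.21 ± 0.36 (edgeR, adjusted p = 0.00305). A bin 579.5 kb from Igfbp3, a carrier of insulin-like growth factors, held 2, 9 and 7 against 14, 23 and 19. Of these 5 bins, 4 were shoulders of a higher CTCF bin.

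The third comparison asked what the number of cells changed. CTCF at 1000 cells differed from CTCF at 10000 cells at 0 chosen bins in either direction, where 0.0122% of all tested bins were called higher and 0.0225% lower (edgeR). DESeq2 also called 0 chosen bins. By edgeR, 148 of the 2000 had an unadjusted p under 0.05, against 9574 of the 106749 tested bins. The median log2 fold change was -0.04 in the chosen bins and -0.13 over all tested bins, 0.10 and 0.00 with TMM, and 0.10 and 0.01 with DESeq2. Of the 37 calls over all tested bins, 35.1% were higher, against 80% of 20 with TMM and 100% of 5 with DESeq2. Without CTCF replicate 3 of 1000 cells, 1 chosen bin was called lower. The 5th and 95th percentiles of the chosen bins were -0.95 and 0.68. In simulated counts with 1 fixed spread, changed bins were drawn from tested bins expected to hold at least 1 count in the smallest library. Of 50 with a true log2 change of 1, 2 were recovered, and of 50 with a change of 2, 33. For true changes of -1 and -2 it was 2 and 25 of 50. The 0 calls therefore do not show that the levels were equal. The Dmp1 bin, for example, held 8, 15 and 19 counts at 1000 cells and 36, 30 and 23 at 10000 cells, and the Pax7 bin 15, 23 and 19 and 31, 37 and 11.

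Over the tested bins with 10 or more counts in a pair (35080 to 98082 bins for 10000 cells), the 10000-cell replicates of a group differed by no more than sampling noise in every pair (chi-square per degree of freedom 0.962 to 0.981), while pairs of 1000-cell libraries gave 1.20 to 1.34 and pairs of 100-cell libraries 1.82 to 1.97. The labels do not say whether the 3 libraries of 10000 cells are separate samples. Without 10000-cell replicate 1, 2 or 3, 10, 4 and 3 tested bins were called. With all of them summed to 1 library, 1 tested bin was called and it was none of the chosen bins. The SDs given above for 10000 cells are subject to the same limit.

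The fourth comparison set H3K27ac against Pol2S2P at 1000 cells, 2 marks of activity from the same cells that the choice did not use. H3K27ac was higher at 35 chosen bins (1.75%) and lower at 4 (0.20%), where 9.8% of all tested bins were called higher and 3.68% lower (edgeR). These shares are not like for like either. The chosen bins entered the test by high CTCF, and other tested bins in part by H3K27ac or Pol2S2P. The lower share of calls is therefore not read as a result about the chosen bins. The comparison bins were called higher at 13.4% and lower at 0.55%, and the 3996 other eligible bins at 5.83% and 5.31%. The median log2 fold change of the chosen bins was 0.13 by library total, -0.11 with TMM and -0.15 with DESeq2, so its direction was not fixed, and that of all tested bins was 0.15, -0.11 and -0.15. TMM called 18 higher and 13 lower, and DESeq2 8 and 2, while leaving out any 1 library gave 19 to 25 higher and 1 to 4 lower, with both lowest values without Pol2S2P replicate 1. The share of all calls that were higher was 72.7% by library total, 52.0% with TMM and 53.3% with DESeq2. The medians of H3K27ac and Pol2S2P were 3 and 4 counts per chosen bin over 3 libraries.

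Among the bins with more H3K27ac, those near Tpra1, Agr3, Igfbp3, Csmd1 and Myc had log2 fold changes of 2.56 ± 0.38, 2.21 ± 0.37, 2.47 ± 0.45, 1.95 ± 0.33 and 1.47 ± 0.36. They were picked for high H3K27ac in the same libraries, so the direction is partly built in. The largest fitted changes came from bins of few counts. A bin 37.6 kb from Pax2, a transcription factor of kidney development, held 4, 1 and 5 H3K27ac counts against 0, 0 and 0 Pol2S2P counts, and a bin 18.4 kb from Lin7a, a scaffold gene, 4, 4 and 2 against 0, 0 and 0, each at least 3.73-fold higher. In a bin near Gm21149 the counts were 3, 4 and 1 against 0, 0 and 0, at least 2.98-fold higher. Asb4, a gene of an ankyrin and SOCS-box protein, held 5, 8 and 9 against 1, 0 and 1, a ratio of 12.3 (counting interval 3.02 to 107.9). Serpinb8, a serine protease inhibitor, held 4, 3 and 4 against 0, 1 and 0, a ratio of 12.3 (1.79 to 529.4). Each of these 5 lost its call under at least 1 alternative, those of Gm21149 and Serpinb8 also with the replicate block.

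Of the 4 bins with more Pol2S2P, 3 lay inside genes. Matn2, which encodes a matrix protein, held a bin with 2, 4 and 6 H3K27ac counts against 20, 20 and 9 Pol2S2P counts, a log2 fold change of -1.84 ± 0.47 (edgeR, adjusted p = 0.0016). Its call held under every alternative that tested it, and the filterByExpr filter left it out. Dnah17, an axonemal dynein gene, held 4, 5 and 1 against 17, 9 and 7, a log2 fold change of -1.52 ± 0.54. On the X chromosome, Tmem164 held 0, 1 and 0 against 4, 6 and 3, a ratio of 0.086 (0.00202 to 0.573). A bin 26.9 kb from Gins3, of the replication complex GINS, held 0, 0 and 0 against 4, 3 and 4, at least 3.28-fold lower. The last 3 lost their calls under at least 1 alternative. High in Pol2S2P without a call were bins near Cavin1, a coat protein of caveolae (7, 8 and 8 H3K27ac against 8, 18 and 11 Pol2S2P counts), near Gclm, of glutathione synthesis (4, 4 and 7 against 19, 11 and 8), and in Ptk2, focal adhesion kinase (5, 5 and 4 against 10, 12 and 12).

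**Figure D4:**
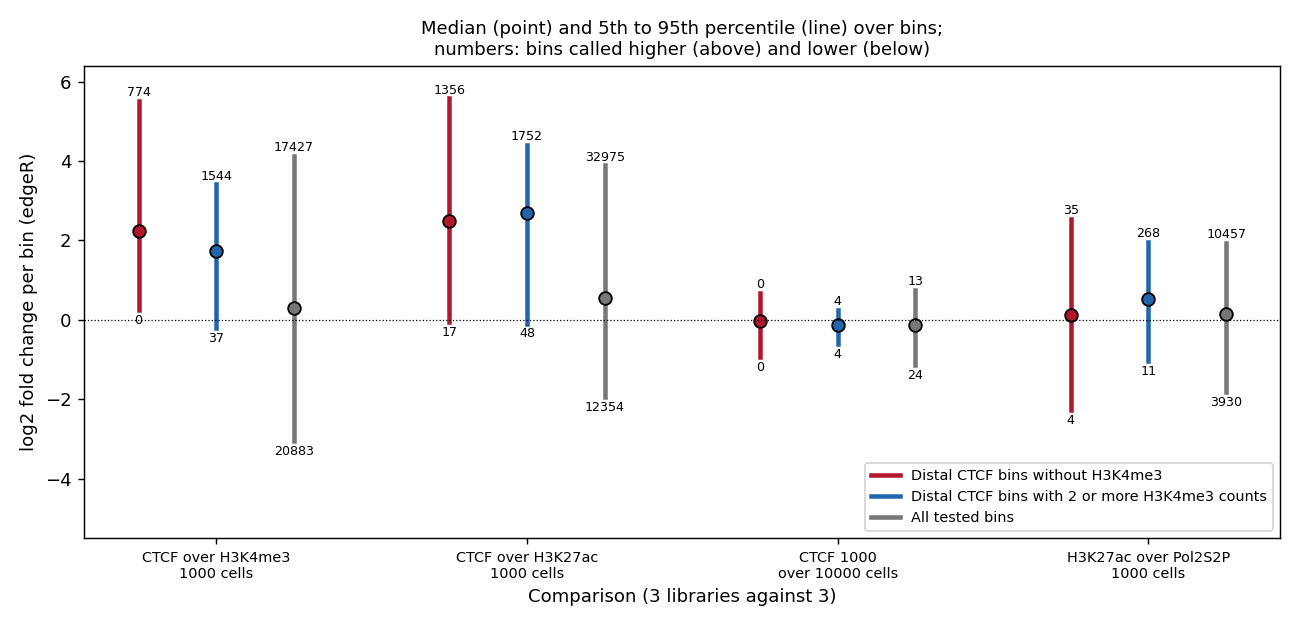
Log2 fold change per 1 kb bin (vertical axis) in the 4 comparisons, with a point for the median and a line from the 5th to the 95th percentile over bins, and the number of bins called higher above and lower below each line (edgeR). The chosen bins (red) have medians of 2.25 and 2.5 for CTCF over H3K4me3 and over H3K27ac, and -0.04 and 0.13 in the other comparisons.

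By position, 850 of the chosen bins (42.5%, 95% Wilson interval 40.3 to 44.7%) lay inside a protein-coding gene, against 32.6% of eligible bins and 38.3% of comparison bins. A lncRNA gene overlapped 244 (12.2%, 10.8 to 13.7%), against 8.41% of eligible bins. The median distance to the nearest protein-coding gene end was 28 kb in the chosen bins, 86.7 kb in eligible bins and 16.1 kb in the comparison bins. The intervals cover counting error only, and neighbouring bins are not independent.

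Most of the chosen bins touched no other chosen bin. Neighbours left out by the rule are not counted here, and 777 chosen bins (38.9%) lay beside a bin higher in single-stained CTCF. The 2000 formed 1943 separate runs, of which 1888 were of 1 bin, 54 of 2 and 1 of 4, with a median gap of 673 kb and 78 gaps under 10 kb. The run of 4 (from chr5:98343601) lay in Cfap299, a cilia and flagella associated gene, and its CTCF counts over the dual libraries of 1000 cells were 3, 5 and 9 in the first bin, 9, 27 and 19 in the second, 0, 5 and 8 in the third and 7, 2 and 8 in the last. The second bin was its summit, with 58 single-stained counts. In all, 1642 genes hosted or were nearest to a chosen bin, 282 of them with 2 or more. Atrnl1 and Pde4d had 5 each, among 432 and 1014 eligible bins, and Fbln2, a gene of the extracellular matrix, had 4 among 55.

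Genes of several groups were looked up by host or nearest gene. Myogenic regulators had 4 of the chosen bins (0.20%, against 0.13% of eligible bins), at Pax7, Mef2c and Pax3. The Mef2c bin held 12, 10 and 18 CTCF counts against 1, 0 and 0 H3K4me3 and 0, 1 and 0 H3K27ac counts at 1000 cells, and the bin 169.6 kb from Pax3 held 9, 10 and 5 against 1, 0 and 0 and 0, 0 and 1. CTCF was called higher than each at both. Genes of the contractile apparatus, of matrix and cytoskeleton, of the clustered protocadherins and of CTCF and cohesin themselves had 0 chosen bins each, where their shares of eligible bins were 0.0342%, 0.0514%, 0.0115% and 0.0391%.

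Genes best known from other tissues also had bins. Olfactory and vomeronasal receptors had 12 (0.60%, against 2.59% of eligible bins), and Olfr687, Olfr827 and Olfr763 held the highest. The bin 17.3 kb from Olfr827 held 5, 12 and 7 CTCF counts against 0, 0 and 0 in H3K4me3, H3K27ac and Pol2S2P alike at 1000 cells. Genes of synapses and cell adhesion had 19 (0.95%, against 2.24%), as in Dlg2, a postsynaptic scaffold, with 12, 19 and 16 CTCF counts against 0, 1 and 0 H3K4me3 counts. Transcription factors of other lineages had 6 (0.30%, against 0.20%), among them a bin 194.5 kb from the endoderm factor Foxa2 with 13, 15 and 5 CTCF counts against 0, 0 and 0 H3K4me3 counts. Immediate early genes had 2 (0.10%, against 0.113%), at Myc and at Fos, imprinted genes 2 (0.10%, against 0.173%), and the Hox clusters 1 (0.05%, against 0.0171%), a bin 55.7 kb from Hoxc4 with 3, 6 and 3 CTCF counts against 0, 1 and 0.

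The chosen bins were uneven over chromosomes. Per 10000 eligible bins there were 17.8 on chromosome 10, 17.3 on each of chromosomes 11 and 15, and 4.48 on X. The eligible share differed too, with 64557 of 121984 bins on chromosome 11 and 147470 of 170892 on X. Per 10000 of all bins, chromosomes 10, 11, 15 and X had 10.9, 9.18, 10.1 and 3.86, and chromosomes 5 and 19 had 9.89 and 9.29. Chromosome 11 thus did not stand out by that measure. Whole-chromosome levels of targets other than CTCF were also high on 10, 11 and 15 and low on X. Pol2S2P at 1000 cells was at 1.27 ± 0.0142, 1.64 ± 0.00657, 1.64 ± 0.0114 and 0.404 ± 0.00147 times the genome mean per bin on chromosomes 10, 11, 15 and X (SD, n = 3), and H3K27ac at 1000 cells at 1.36, 1.53, 1.73 and 0.348 times. Other chromosomes did not keep that order: chromosome 16 had 9.06 chosen bins per 10000 eligible bins at a Pol2S2P level of 1.21, and chromosome 5 had 14.6 at a level of 1.05. Their part in where the chosen bins fell was not tested, and no library without a target antibody was used here.

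**Figure D5:**
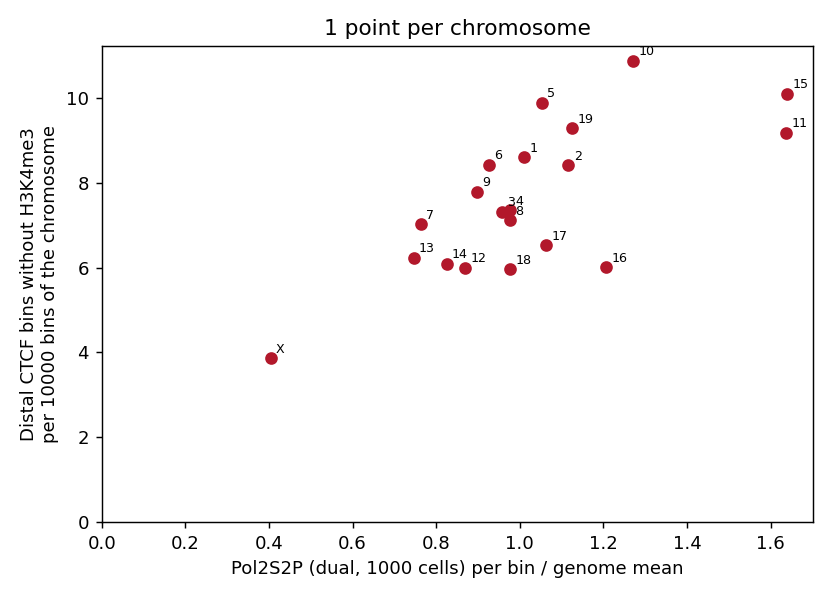
Chosen bins per 10000 bins of each chromosome (vertical) against the Pol2S2P level per bin of that chromosome at 1000 cells, as a multiple of the genome mean (horizontal), 1 point per chromosome. X lies lowest on both axes, with 3.86 chosen bins per 10000 bins at a level of 0.404. Chromosomes 10, 11 and 15 have the highest Pol2S2P levels, at 10.9, 9.18 and 10.1 chosen bins per 10000 bins. Chromosome 5 has 9.89 at a level of 1.05.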

How the data were processed

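mtChIL-seq libraries of C2C12 cells were analysed. The deposited table holds raw counts per 1 kb bin, with no scaling by the authors that the table shows. Per the submitters' processing notes, bcl2fastq, HISAT2 2.1.0, deepTools 3.3.1 and GRCm38 were used. Their treatment of duplicates, repeats and barcodes is not given in the sources available for this work, and each could change counts. Columns were matched to 28 of 34 samples by name. The other 6 samples were not analysed here, and 4 further value columns matched no sample and were not used.

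Of 2728634 bins, 2631639 lie on chromosomes 1 to 19 and X, and 33 in 3 intervals of extreme counts were left out. Gene ends came from RefSeq (GRCm38.p6: 21627 protein-coding and 12697 lncRNA genes). Levels are counts per 1000000 of these bins' total, divided by the genome mean. Tests used edgeR 4.0.16 (quasi-likelihood, library totals as size, Benjamini-Hochberg over all tested bins) in R 4.3.3, with each comparison fitted on its own 6 libraries and no block. Per the file headers, same-numbered libraries of a dual staining are targets of 1 staining, so numbers pair libraries in the comparisons of CTCF with H3K4me3 and of H3K27ac with Pol2S2P. Their deviations from group means correlated by 0.071 to 0.0834 and 0.0998 to 0.111, and all correlations between different numbers were negative there. A bin was tested with 20 or more summed counts in at least 1 of 4 groups that enter no comparison, which left 106749 bins. All 2000 chosen bins passed by construction, since single-stained CTCF is among those groups. The scripts were tested on simulated data. DESeq2 1.42.0, TMM, other filters, each library left out, a replicate block and other choices of bins were run as alternatives. Where a group held 0 counts, a bound from a floor of 3 counts is given, and with 1 to 3 counts an exact 95% counting interval. Intervals cover counting error only, since reads without molecular identifiers are not independent molecules.

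The bins, the gene lists and the tests were chosen with earlier results of these data known. A bin is named by its host protein-coding gene or else the nearest one. Named are the 10 bins highest in single-stained CTCF, 3 on each side of the limit, the 5 largest changes in each direction per comparison among called bins whose groups do not overlap, the 5 highest in H3K27ac and in Pol2S2P, the longest run, and up to 3 per gene list. The bins with a promoter window, the bins with most chosen neighbours per gene and Mir759 were named after their values were seen. A planned search of all chosen bins for the CTCF core was not run, as no genome sequence was used here, and promoter windows from RefSeq took its place.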

Additional observations from a re-analysis of the deposited data

How the results depend on the processing

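The median log2 fold change of the chosen bins stayed positive for CTCF over H3K4me3 and over H3K27ac in every refit. For H3K27ac over Pol2S2P it was -0.11 with TMM, -0.15 with DESeq2 and 0 without H3K27ac replicate 1 or 3, and for 1000 over 10000 cells it was positive with TMM, DESeq2 and filterByExpr. With TMM, 28 chosen bins were lower for CTCF over H3K27ac, 20 tested bins were called for 1000 over 10000 cells, and 18 higher and 13 lower for H3K27ac over Pol2S2P. DESeq2 gave 819 higher for CTCF over H3K27ac, 5 tested bins for 1000 over 10000 cells, and 6842 tested bins with 8 higher and 2 lower for H3K27ac over Pol2S2P. A filter of 10 gave 448 higher for CTCF over H3K4me3 and 2 lower for H3K27ac over Pol2S2P. filterByExpr, which left 3, 142, 788 and 12 chosen bins in the 4 comparisons, gave 15154 calls with 3 chosen bins, 22638 with 123, 90 with 0, and 12 higher and 0 lower chosen bins in the last.
Leaving out 1 library gave 424 to 652 higher for CTCF over H3K4me3, 3 to 42 tested bins and 0 to 1 chosen bins lower for 1000 over 10000 cells, and 9192 to 11335 tested bins with 19 to 25 higher and 1 to 4 lower for H3K27ac over Pol2S2P. The 1 tested bin left with the 10000-cell libraries summed, like the restriction to summits, was added after seeing the data.
Other choices of bins changed counts because they hold fewer or other bins. The first 1000 gave 506 higher for CTCF over H3K4me3, 805 higher and 4 lower for CTCF over H3K27ac, and 19 higher for H3K27ac over Pol2S2P. Bins with 0 H3K4me3 counts (1416 of them tested) gave 355, 724 and 26, and 2 lower in the last. Bins over 10 kb from gene ends gave 2 lower in the last. Summits gave 520 higher of 1223 in the first, 907 higher and 6 lower in the second, and 13 higher and 2 lower in the last.
Levels, as multiples of the genome mean, are given for CTCF (dual 1000, dual 10000, single), H3K27ac (100, 1000) and Pol2S2P (100, 1000, single) in that order. The first 1000 had 7.67, 7.89, 8.64, 1.45, 1.36, 1.22, 1.21 and 1.54. Bins with 0 H3K4me3 counts had 4.33, 4.37, 5.23, 1.49, 1.42, 1.26, 1.25 and 1.26, with H3K4me3 at 1.15 (1000 cells) and 0 by construction (10000 cells). Bins over 10 kb from gene ends had 5.96, 6.15, 6.94, 1.58, 1.5, 1.21, 1.22 and 1.34. Summits had 6.78, 7.0, 7.64, 1.31, 1.27, 1.15, 1.16 and 1.52. The cause of the other changes was not tested.
A replicate block gave 611 higher and 0 lower for CTCF over H3K4me3, 1226 and 14 for CTCF over H3K27ac, 0 and 0 for 1000 over 10000 cells, and 34 and 5 for H3K27ac over Pol2S2P. For CTCF over H3K27ac and for 1000 over 10000 cells the libraries share only a number. In the other comparisons the block is a pairing of targets from the same staining, and there it ended the calls of Gm21149 and Serpinb8 among the named bins and no other. Of the named bins, 1 for CTCF over H3K27ac and 8 for H3K27ac over Pol2S2P lost a call somewhere, 0 for CTCF over H3K4me3, and none reversed. The filterByExpr filter did not test those of CTCF over H3K4me3 or of H3K27ac over Pol2S2P. Medians per chosen bin over 3 libraries of 1000 cells were 1, 3 and 4 counts for H3K4me3, H3K27ac and Pol2S2P, so single bins carry wide counting error.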
